A study of Mus musculus with 25 samples.

Results

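Cultured induced hepatocytes (iHeps) were set against fetal liver of embryos at E14.5 (days of gestation) on genome-wide expression arrays. The members were the 3 arrays titled as iHep replicates 1 to 3 and the 2 arrays titled as fetal liver replicates 1 and 2, which make 5 of the 25 arrays of the series. An iHep is a cell with hepatocyte features made from a fibroblast by forced expression of liver transcription factors. Each iHep array held RNA of a line that the labels call independent, derived from E13.5 C57BL/6J embryonic fibroblasts with retroviral Foxa1 and Hnf4a, and grown with insulin, dexamethasone, 10 mM nicotinamide, 20 ng/ml hepatocyte growth factor (HGF) and 20 ng/ml epidermal growth factor (EGF). The fetal liver arrays held whole liver harvested fresh from C57BL/6J fetuses, with no transgene and no culture. The other arrays used in the same model were 2 of adult liver, 2 of engrafted iHeps and 2 of colon at 8 weeks of age. The engrafted iHeps were sorted 12 days after engraftment in colon. The adult liver labels give 8 weeks of age in one field and 10 weeks in another. A further 4 arrays of iHeps with scramble shRNA served as an alternative to the 3 untransduced lines. Whether a fetal liver sample came from 1 fetus or from a pool was not given in the labels. Levels are the authors' log2 signals computed with robust multi-array averaging (RMA), on which a difference of 1 is a doubling, and with so few arrays their precision is limited.

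The liver of the midgestation mouse embryo is the main site of blood formation, and red cell precursors outnumber its hepatoblasts, the bipotent cells that later form hepatocytes and bile duct cells. Hepatoblasts already secrete albumin, alpha-fetoprotein, apolipoproteins and clotting factors, whereas many enzymes of drug, bile acid and glucose metabolism appear around and after birth. Foxa1 is a pioneer factor of endoderm and Hnf4a a nuclear receptor that holds the hepatocyte and the gut epithelial programmes. In bulk samples, fewer cells of a type and less RNA of that type per cell cannot be told apart.

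Most blood cell genes tested and many genes of secreted liver proteins were lower in iHeps than in fetal liver, and many genes of the epithelial junction, growth factor response and cell cycle inhibitor lists were higher. Of 15262 genes tested, 3041 were higher in iHeps (19.9%) and 1997 were lower (13.1%) at a Benjamini-Hochberg adjusted p under 0.05 in limma, a linear model with a moderated spread. The median log2 fold change over all genes tested was 0.055. Of the higher genes 235 differed by more than 4 on the log2 scale, and of the lower genes 230. The groups did not overlap for 62.4% of all genes tested. Without fetal liver replicate 2 the counts were 1808 higher and 1293 lower, and 1686 of the higher and 1111 of the lower genes passed in every fit that left out 1 of the 5 arrays. Genes higher in iHeps made up 60.4% of the calls, but 49.9% when quantile normalization was repeated over the 11 arrays of the model.

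Facts of the arrays that touch all of the following were these. Across the genes tested, Pearson's r was 0.961, 0.952 and 0.979 between iHep arrays and 0.981 between the fetal liver arrays, and it lay between 0.739 and 0.778 across the groups. The 3′ probe set of the added bacterial Dap RNA was at 11.07, 10.85 and 11.06 in the iHep arrays, against 11.24 and 11.51 in the fetal liver arrays. The hybridization controls differed more between the groups: the 3′ probe set of BioB was at 8.32, 8.30 and 8.61 in the iHep arrays, against 9.13 and 9.52 in the fetal liver arrays, and that of BioDn at 11.89, 11.87 and 12.14 in the iHep arrays, against 12.68 and 12.92 in the fetal liver arrays. Their part in the results was not tested. The 4 colon and colon-engrafted arrays of the model stood apart from the other 7: their Dap probe set was at 3.25 to 4.28, so that they show no such added RNA, and their 18S ribosomal RNA probe set at 14.74 to 14.76, against 12.04 to 12.63 in iHeps and 12.12 to 12.82 in fetal liver. Without these 4 arrays 3259 genes were higher and 2198 lower. The 40th percentile of the 5 arrays lay between 5.56 and 5.68; where a group was below it on all its arrays, probe set background sets the fold change, which then has no exact size. This held for fetal liver in 453 of the higher genes and for iHeps in 477 of the lower genes. Gene lists chosen for liver, blood, gut and culture held 950 members, of which 865 were measured and 842 tested. The bars of list members past the threshold show the blood lists almost wholly on the lower side and the growth control lists mostly on the higher side.

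**Figure D1:**
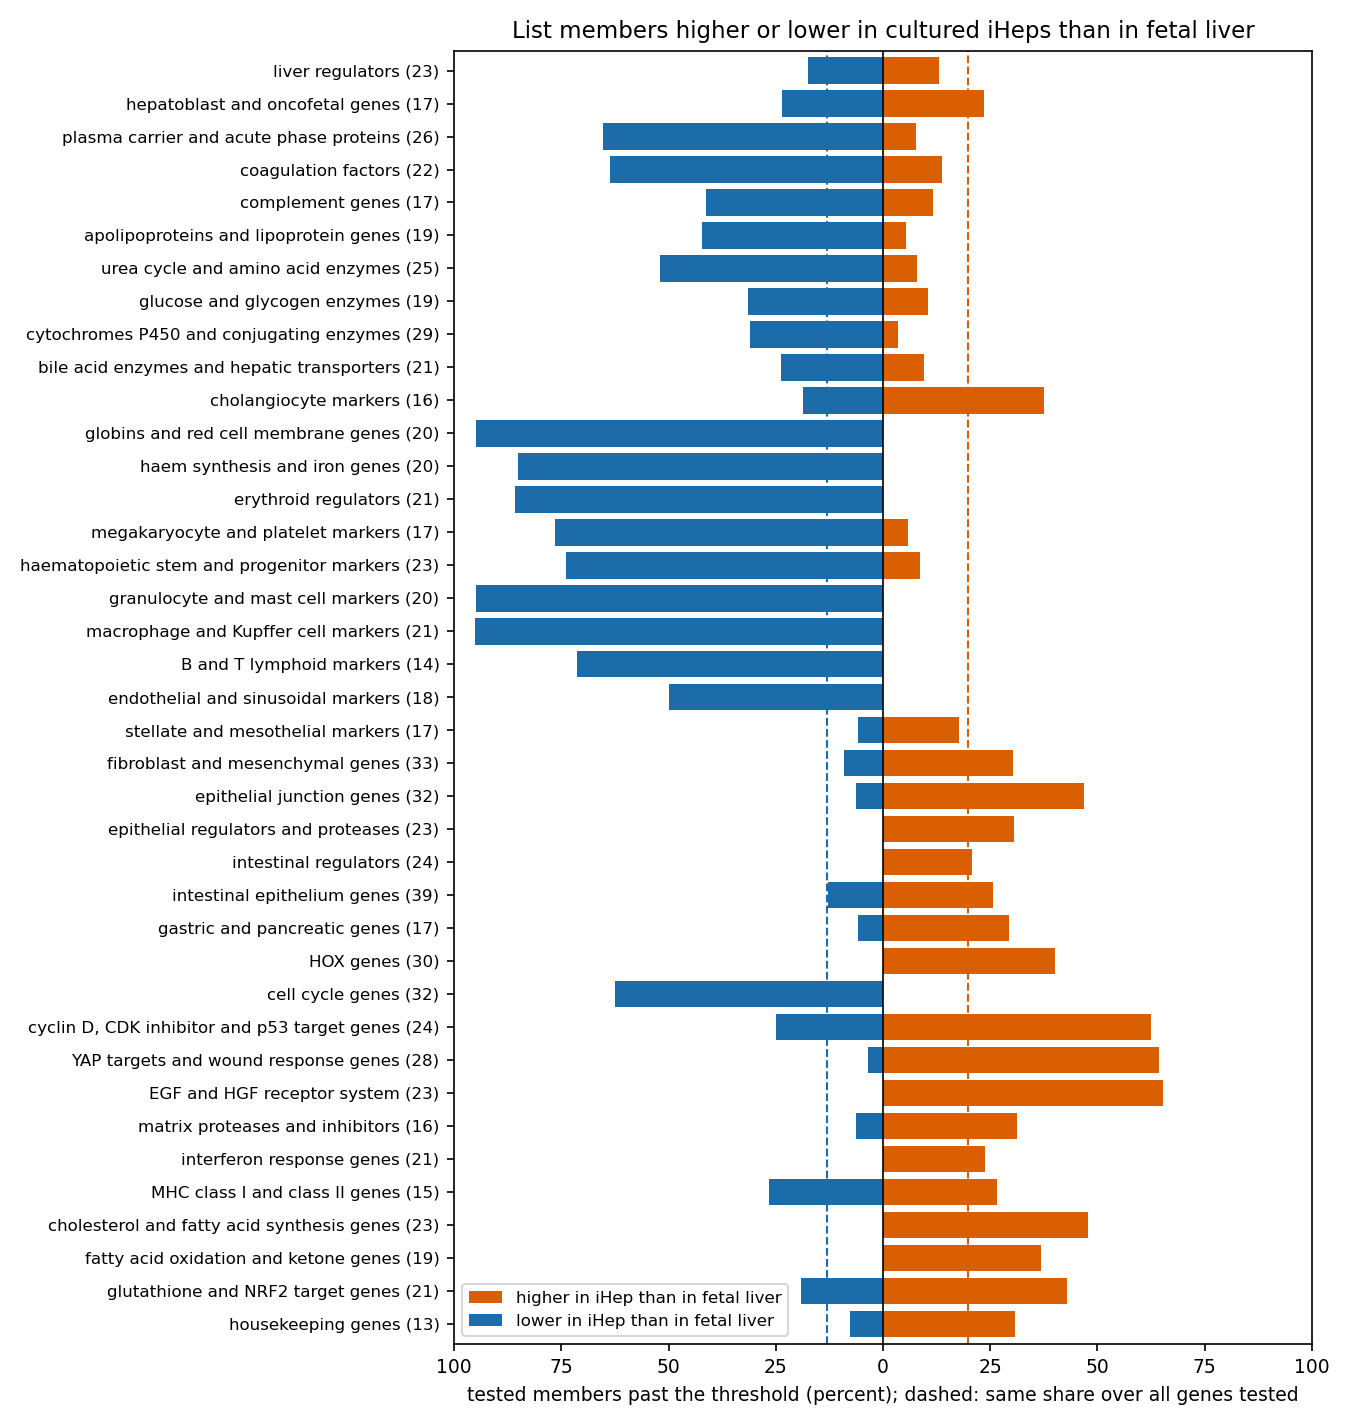
Share of the tested members of each gene list that were higher (bars to the right, percent) or lower (bars to the left, percent) in iHeps than in fetal liver, with the number tested in brackets. The dashed lines give the same shares over all 15262 genes tested, 19.9% higher and 13.1% lower.

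Red cell genes were mostly lower in iHeps. Of 20 tested members of the globin and red cell membrane list, 19 were lower in iHeps, with a median log2 fold change of -6.00. The remaining member, the alpha globin gene Hba-a2, was at 5.84, 5.83 and 4.69 in iHeps and at 5.67 and 5.98 in fetal liver on the 1 probe set assigned to it alone, and did not pass (-0.37 ± 0.34, adjusted p = 0.456). Of 20 haem synthesis and iron genes 17 were lower (median -2.70), and of 21 erythroid regulators 18 were lower (median -3.81), and the remaining 3 of each list did not pass. The lower members of each list numbered between 16 and 19 when any 1 array was left out.

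The promoters shown are those of Hemgn, Rhag, Klf1 and Alas2, genes of the red cell lineage that were at or near background in iHeps, and of Afp, the oncofetal serum protein described further on; each runs from 250 bases before to 50 bases after the gene start, on the gene's own strand, from RefSeq (GRCm38.p6). Hemgn lies at chr4:46404134-46404433 on the minus strand, Rhag at chr17:40810899-40811198, Klf1 at chr8:84901732-84902031, Alas2 at chrX:150547167-150547466 and Afp at chr5:90490464-90490763, all on the plus strand. Capitals mark matches, on either strand, to the GATA motifs AGATAA and TGATAA in the first 4 and to the HNF1 motif TTAATNATT in Afp.
Hemgn: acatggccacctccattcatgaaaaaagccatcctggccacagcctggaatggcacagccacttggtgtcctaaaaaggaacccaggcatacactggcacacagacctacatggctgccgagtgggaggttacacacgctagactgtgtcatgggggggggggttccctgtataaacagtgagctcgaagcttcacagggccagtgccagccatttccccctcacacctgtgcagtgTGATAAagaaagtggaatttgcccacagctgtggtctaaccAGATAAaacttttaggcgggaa
Rhag: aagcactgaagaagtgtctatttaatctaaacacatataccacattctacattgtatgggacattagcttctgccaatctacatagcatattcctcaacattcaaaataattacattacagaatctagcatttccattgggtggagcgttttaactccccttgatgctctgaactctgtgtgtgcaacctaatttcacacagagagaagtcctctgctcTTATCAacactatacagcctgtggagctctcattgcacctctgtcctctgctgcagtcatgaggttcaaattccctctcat
Klf1: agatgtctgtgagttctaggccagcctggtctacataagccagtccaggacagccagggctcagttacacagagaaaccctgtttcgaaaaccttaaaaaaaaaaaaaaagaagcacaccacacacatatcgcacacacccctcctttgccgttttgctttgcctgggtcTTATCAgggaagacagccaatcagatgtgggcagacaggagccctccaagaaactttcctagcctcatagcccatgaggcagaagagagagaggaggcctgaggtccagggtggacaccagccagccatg
Alas2: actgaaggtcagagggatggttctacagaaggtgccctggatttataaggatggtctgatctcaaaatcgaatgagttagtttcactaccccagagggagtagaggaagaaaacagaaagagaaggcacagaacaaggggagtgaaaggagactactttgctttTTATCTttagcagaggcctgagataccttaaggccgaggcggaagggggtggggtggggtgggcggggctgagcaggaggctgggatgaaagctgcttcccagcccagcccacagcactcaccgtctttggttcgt
Afp: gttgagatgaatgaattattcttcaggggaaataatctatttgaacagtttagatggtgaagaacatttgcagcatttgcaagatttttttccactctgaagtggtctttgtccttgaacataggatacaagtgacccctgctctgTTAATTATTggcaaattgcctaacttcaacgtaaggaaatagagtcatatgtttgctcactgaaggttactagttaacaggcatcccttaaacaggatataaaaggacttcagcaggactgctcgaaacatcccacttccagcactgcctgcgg
A GATA match was in 21.0% of 27025 genes with a promoter in the table. Among measured list members with a promoter there, it was in 12 of 17 globin and red cell membrane genes (70.6%). The share of haem and iron genes, 4 of 16, was near that of all genes. Erythroid regulators had it in 6 of 19 (31.6%), and plasma carrier proteins had a similar share, 7 of 23 (30.4%). The match was not particular to the lowest genes. It was in 5 of 12 of the 15 lowest genes (41.7%) and in 3 of 10 of the 15 highest. The KLF motif CCACACCC was in 1 of 52 promoters of the 3 red cell lists (1.92%), against 4.09% of all. It was in 3 of 10 of the 15 highest genes and in 1 of 12 of the 15 lowest. An HNF1 match was in 2 of 19 coagulation factor promoters (10.5%), 3 of 30 intestinal epithelium promoters (10.0%) and 2 of 23 plasma carrier promoters (8.7%). It was in 0 of 15 apolipoprotein promoters, against 1.72% of all. The CDX motifs TTTATGG and TTTATTG were in 4 of 30 intestinal epithelium promoters (13.3%) and in 0 of 16 intestinal regulator promoters, against 8.32% of all; they were also in 4 of 15 apolipoprotein promoters (26.7%) and in 3 of 12 of the 15 lowest genes. The HNF4 motif CAAAGTCCA was in 2 of the 30 intestinal epithelium promoters (6.67%), against 0.555% of all. It was in none of the plasma carrier, coagulation factor or apolipoprotein promoters. The pair of GATA motifs and the pair of CDX motifs were each counted once per promoter, and a match is a description of the letters, not of binding.

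Hemgn, a nuclear protein of red cell precursors, was at 3.12, 3.03 and 3.16 in the iHep arrays, against 13.05 and 13.29 in fetal liver, a log2 fold change of -10.07 ± 0.42 (SE; adjusted p = 2.88e-07). It was the lowest of all named genes, and its iHep values lay at background on every array. Rhag, an ammonia channel of the red cell membrane, was at 3.16, 3.54 and 3.38 in iHeps, against 12.91 and 13.11 in fetal liver (-9.65 ± 0.22, adjusted p = 1.98e-08). Slc4a1, the band 3 anion exchanger, was at 5.04, 4.79 and 4.53 in iHeps, against 14.21 and 14.46 in fetal liver (-9.55 ± 0.48, adjusted p = 7.91e-07). The Hbb-b2 probe set of adult beta globin, a gene with near-identical copies, was at 3.43, 3.27 and 3.35 in iHeps, against 12.62 and 12.99 in fetal liver (-9.45 ± 0.30). In all 4 genes the iHep arrays lay close together and far under either fetal liver array. Klf1, a zinc finger activator of globin genes, was at 5.96, 5.90 and 5.91 in iHeps, against 13.12 and 13.20 in fetal liver (-7.23 ± 0.19, adjusted p = 3.03e-08). Tal1 and Nfe2, transcription factors of the same lineage, differed by -7.18 ± 0.18 and -8.09 ± 0.26. Alas2, the first and rate-limiting enzyme of haem synthesis in red cells, was at 4.87, 5.24 and 4.66 in iHeps, against 12.35 and 12.81 in fetal liver (-7.66 ± 0.39). The transferrin receptor Tfrc was at 11.53, 11.19 and 11.19 in iHeps and at 13.47 and 13.39 in fetal liver, and was lower in iHeps, with a log2 fold change of -2.13 ± 0.30 (adjusted p = 0.000491). The control probe sets of the same transcript gave other values: the 3′ one was at 6.35, 6.44 and 6.76 in iHeps, against 9.85 and 9.95 in fetal liver, and the 5′ one at 5.07, 4.21 and 5.26 in iHeps, against 7.16 and 7.81 in fetal liver, so that the size of the difference depends on the probe set. Fth1, the ferritin heavy chain, was at 13.29, 14.00 and 14.14 in iHeps and at 14.12 and 14.17 in fetal liver, and did not pass the test (-0.34 ± 0.26, adjusted p = 0.379).

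White cell genes followed the same direction. Of 20 granulocyte and mast cell markers 19 were lower in iHeps (median -6.36), of 21 macrophage and Kupffer cell markers 20 (median -4.52), and of 14 B and T lymphoid markers 10 (median -2.52). S100a8 and S100a9, which form the calprotectin of neutrophils, differed by -9.14 ± 0.75 and -9.26 ± 1.04. S100a8 was at 4.88, 5.66 and 5.21 in iHeps, against 14.28 and 14.51 in fetal liver. Ctsg, a neutrophil granule protease, was at 4.76, 5.15 and 4.58 in iHeps, against 12.59 in each fetal liver array (-7.75 ± 0.26). The granule protein Ngp was at 5.60, 5.39 and 5.81 in iHeps, against 13.33 and 14.46 in fetal liver (-8.30 ± 0.33). Csf1r, the receptor that macrophages need for survival, was at 6.26, 6.06 and 6.35 in iHeps, against 12.14 and 12.51 in fetal liver (-6.10 ± 1.24, adjusted p = 0.00394). Rag1, which cuts antigen receptor genes, was at 3.21, 2.79 and 2.95 in iHeps, against 8.02 and 9.46 in fetal liver (-5.76 ± 0.36). No iHep array reached the lower fetal liver array in these genes. One basophil and mast cell protease stood apart: Mcpt8 was at 6.63, 10.18 and 8.91 in iHeps and at 9.76 and 10.01 in fetal liver, so that iHep replicate 2 lay above both fetal liver arrays (-1.30 ± 0.78, adjusted p = 0.243).

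Of 17 megakaryocyte and platelet markers 13 were lower and 1 higher, and of 23 stem and progenitor markers 17 were lower and 2 higher. Ppbp, a platelet chemokine, was at 3.46, 3.61 and 3.30 in iHeps, against 12.48 and 12.40 in fetal liver (-8.98 ± 0.47). Ptprc, the common leukocyte phosphatase CD45, was at 3.50, 3.42 and 3.36 in iHeps, against 10.35 and 10.98 in fetal liver (-7.24 ± 0.79, adjusted p = 9.07e-05). The 2 higher members, Mecom and Procr, are also made outside blood. Mecom, a zinc finger factor of stem cells and some epithelia, was at 9.68, 9.90 and 9.91 in iHeps, against 5.90 and 5.88 in fetal liver (3.94 ± 0.26, adjusted p = 4.63e-06). Runx1, a factor of definitive blood formation, was at 9.02, 8.45 and 8.78 in iHeps and at 8.76 and 8.71 in fetal liver (0.02 ± 0.28, adjusted p = 0.974). The groups overlapped for Runx1, which was well above background in all 5 arrays. Rab27b, a vesicle transport gene and the 1 higher platelet marker, differed by 1.24 ± 0.39 (adjusted p = 0.0354) and passed in only 1 of the 5 fits without an array, the fit without iHep replicate 2.

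**Figure D2:**
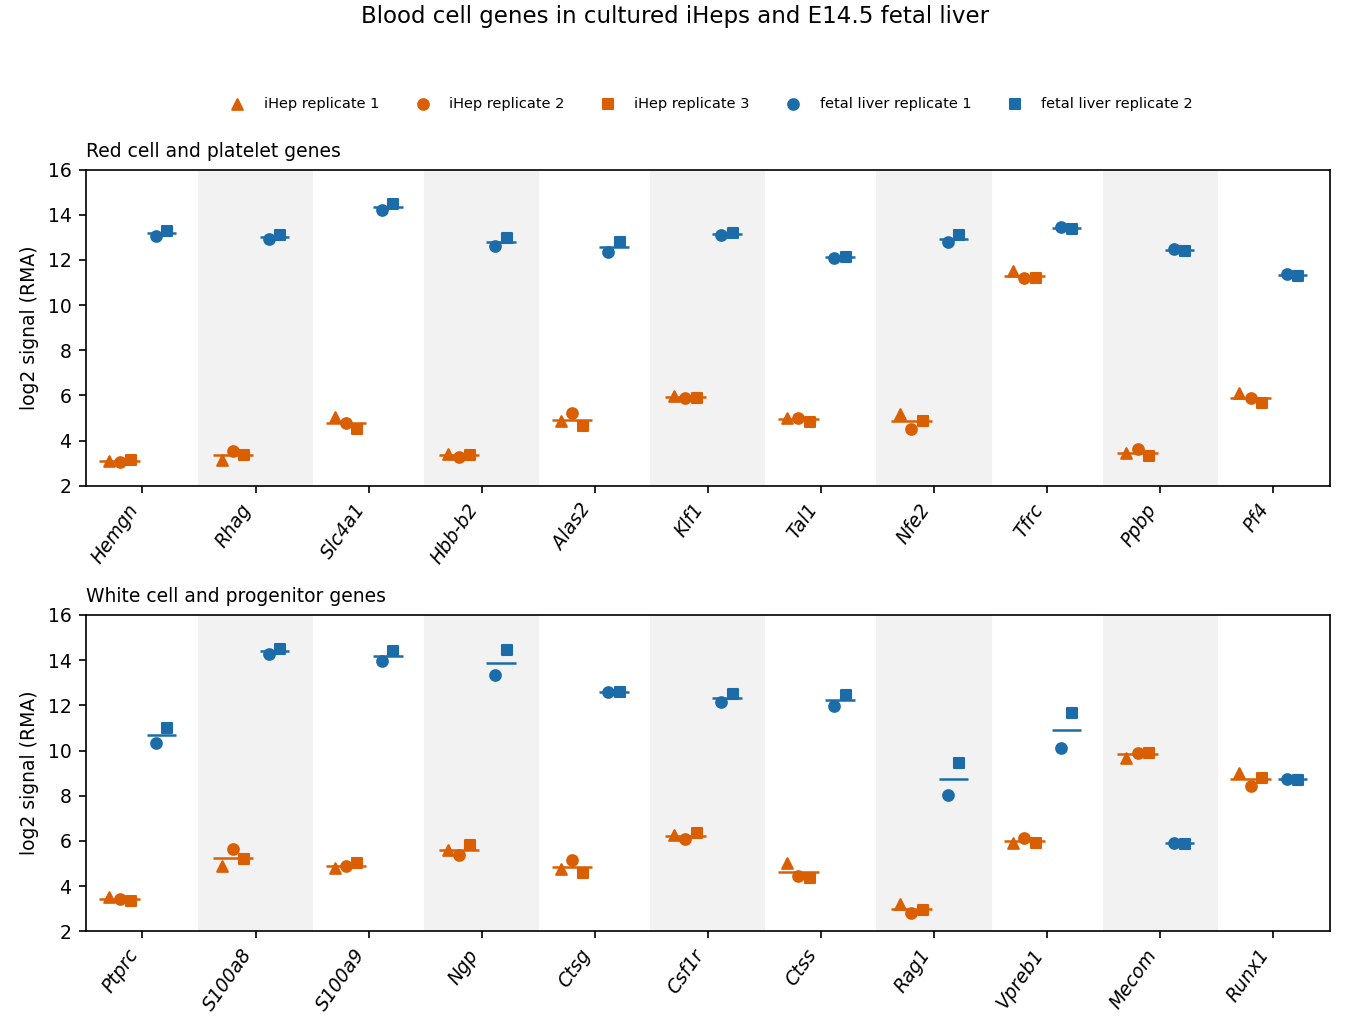
Log2 signal (vertical axis) of red cell and platelet genes (upper panel) and of white cell and progenitor genes (lower panel), with the 3 iHep arrays left of the 2 fetal liver arrays for each gene; points are arrays and short lines are group means. The iHep arrays of Hemgn lie at 3.03 to 3.16, against 13.05 and 13.29 in fetal liver, while Mecom is above fetal liver and Runx1 is level with it.

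Markers of the other liver cells were mixed. Of 18 endothelial and sinusoidal markers 9 were lower and 9 did not pass (median -1.09). Cdh5, the cadherin of endothelial junctions, was at 5.06, 4.55 and 4.15 in iHeps, against 7.89 and 8.02 in fetal liver (-3.37 ± 0.51). Stab2, a scavenger receptor of sinusoidal endothelium, differed by -2.77 ± 0.39 (adjusted p = 0.000422). Among 17 stellate and mesothelial markers 3 were higher (17.6%, under the 19.9% of all genes tested) and 1 lower. The lower one was Reln, a secreted glycoprotein of stellate cells, at 4.76, 4.62 and 5.05 in iHeps, against 9.86 and 9.26 in fetal liver (-4.74 ± 0.28). The mesothelial surface protein Msln was at 13.05, 9.83 and 8.11 in iHeps, against 5.03 and 5.27 in fetal liver (5.18 ± 1.08, adjusted p = 0.00468). Its iHep arrays were spread widely, and the lowest of them was still above both fetal liver arrays. Without iHep replicate 1 the higher members of that list numbered 5.

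Few liver regulators passed the test. Of 23 tested members 3 were higher in iHeps, a smaller share than the 19.9% of all genes tested, 4 were lower (17.4%, against 13.1% of all), and 16 did not pass. Without iHep replicate 1 there were 5 higher members; without fetal liver replicate 1 there was 1 lower member and without iHep replicate 2 there were 2. Hnf4a, one of the 2 transduced factors, was at 7.67, 10.79 and 10.48 in iHeps, against 9.44 and 8.38 in fetal liver (0.73 ± 0.77, adjusted p = 0.53). The groups overlapped through iHep replicate 1, and without it the difference was 1.72 (adjusted p = 0.0047). Foxa1, the other transduced factor, was at 4.29, 4.14 and 4.52 in iHeps, against 6.12 and 4.74 in fetal liver (-1.11 ± 0.55, adjusted p = 0.155). All iHep values of Foxa1 were at background; the sources used here do not place its probe set relative to the transgene, so that the level checks neither the transgene nor the label.

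Hhex, a homeobox gene of the liver bud and of blood vessels, was at 7.53, 7.26 and 6.63 in iHeps, against 10.07 and 10.25 in fetal liver (-3.02 ± 0.28, adjusted p = 3.48e-05). Foxa2 and Foxa3, relatives of Foxa1, were lower, with log2 fold changes of -0.94 ± 0.25 and -1.70 ± 0.46, with iHep values between 4.74 and 5.55. Both calls were lost without fetal liver replicate 1, at -0.54 and -1.20, and that of Foxa3 also without iHep replicate 2, at -1.59. The fourth lower member was Creb3l3, a membrane-bound factor of lipid metabolism, at -1.30 ± 0.36 (adjusted p = 0.0202), a call lost without fetal liver replicate 1 (-0.90) or iHep replicate 2 (-1.12). The 3 higher regulators were Nr2f2, Esrp2 and Gata6. Nr2f2, an orphan nuclear receptor of many mesenchymal and venous cells, was at 8.96, 9.99 and 10.35 in iHeps, against 7.01 and 6.31 in fetal liver (3.11 ± 0.41, adjusted p = 0.00029). Esrp2, an epithelial splicing factor, was at 8.92, 8.96 and 9.63 in iHeps, against 7.28 and 6.32 in fetal liver (2.37 ± 0.33). Gata6, a factor of endoderm, was at 9.41, 8.01 and 7.95 in iHeps, against 6.84 and 6.05 in fetal liver (2.01 ± 0.48, adjusted p = 0.00928; 1.61, adjusted p = 0.106, without fetal liver replicate 2). Cebpa, a factor of hepatocyte maturation, was at 8.75, 8.20 and 8.54 in iHeps and at 8.65 and 8.13 in fetal liver, and the groups overlapped (0.11 ± 0.25, adjusted p = 0.792). The remaining members that did not pass were Onecut1, Onecut2, Cebpb, Nr1h4, Nr0b2, Nr5a2, Prox1, Gata4, Nr1i2, Nr1i3, Ppara, Tbx3 and Rxra, with log2 fold changes between -0.92 for Ppara and 0.95 for Tbx3. Nr1h4, the bile acid receptor, and Nr1i3, a xenobiotic receptor, were at background in both groups.

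Plasma protein genes were mostly lower in iHeps, with a few exceptions that were higher. Of 26 carrier and acute phase proteins 17 were lower and 2 higher (median -1.74), and of 22 coagulation factors 14 were lower and 3 higher (median -1.94). Alb, serum albumin, was at 5.69, 9.90 and 11.59 in iHeps, against 14.30 and 14.16 in fetal liver (-5.17 ± 1.28, adjusted p = 0.0116). Ttr, a thyroid hormone carrier, was at 4.93, 8.84 and 12.00 in iHeps, against 13.72 and 13.19 in fetal liver (-4.86, adjusted p = 0.0314). In both genes the 3 lines were spread over more than 5 on the log2 scale, with replicate 1 at or near background and replicate 3 closest to fetal liver. The Alb call was lost without either fetal liver array (-5.10, adjusted p = 0.0683, and -5.24, adjusted p = 0.0722). The Ttr call was lost without iHep replicate 2 (-4.99), fetal liver replicate 1 (-4.60) or fetal liver replicate 2 (-5.13), and with the scramble shRNA iHep arrays the difference was -1.05 (adjusted p = 0.494). Serpina6, the corticosteroid carrier, Itih3, a hyaluronan-binding protein, and Vtn, vitronectin, were at background in all 3 lines and lower, with log2 fold changes of -6.24 ± 0.68, -6.50 ± 0.29 and -5.55 ± 0.35. Hpx, the haem scavenger, was at 8.01, 11.11 and 12.14 in iHeps and at 10.50 and 9.65 in fetal liver (0.34 ± 0.94, adjusted p = 0.83); without iHep replicate 1 it was higher by 1.55 (adjusted p = 0.0207). Cp, the copper carrier ceruloplasmin, was at 10.70, 10.99 and 11.87 in iHeps, against 9.12 and 9.44 in fetal liver, and was higher (1.91 ± 0.38, adjusted p = 0.00363). The other higher member was Fetub, fetuin B, at 8.45, 7.11 and 7.63 in iHeps against 6.52 and 5.99 in fetal liver (1.48 ± 0.37), a call lost without fetal liver replicate 2 (1.21, adjusted p = 0.124).

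The chains of fibrinogen, which are assembled in equal numbers, went in opposite directions. Fgb, the beta chain, was at 11.62, 13.88 and 14.34 in iHeps, against 10.67 and 9.74 in fetal liver (3.07 ± 0.66, adjusted p = 0.00554; 2.61, adjusted p = 0.0696, without fetal liver replicate 2). Fga, the alpha chain, was at 3.83, 4.0 and 3.50 in iHeps, against 11.44 and 10.92 in fetal liver (-7.40 ± 0.26, adjusted p = 1.67e-07). Fgg, the gamma chain, was at 5.02, 6.81 and 6.79 in iHeps, against 11.96 and 11.46 in fetal liver (-5.51 ± 0.49). For none of the 3 chains did the groups overlap. Kng1, a kininogen of the contact pathway, was at 12.55, 12.12 and 12.18 in iHeps, against 11.16 and 10.73 in fetal liver (1.34 ± 0.26), and Pros1, protein S, was higher by 1.34 ± 0.24 (adjusted p = 0.00201). Serpinc1, antithrombin, and Plg, plasminogen, were at background in all 3 lines and lower, with log2 fold changes of -5.96 ± 0.38 and -5.32 ± 0.26. F5, a clotting cofactor, was at 11.06, 6.88 and 7.91 in iHeps and at 9.83 and 9.86 in fetal liver, and did not pass (-1.23 ± 0.94, adjusted p = 0.37); iHep replicate 1 was above fetal liver and the other lines below it.

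Complement genes numbered 17 tested, with 7 lower and 2 higher (median -1.17), and apolipoprotein and lipoprotein genes 19, with 8 lower and 1 higher (median -0.75). Apoa1, the chief apolipoprotein of high density particles, was at 14.97, 14.90 and 14.89 in iHeps, against 13.02 and 12.44 in fetal liver (2.19 ± 0.28, adjusted p = 0.000281). The iHep values lay close to the highest signal of the whole table, 15.11, so that a limit of the probe set on the size of this difference, and on the spread between lines, was not tested. Apoa2, its partner in the same particle, was at 6.99, 6.80 and 6.87 in iHeps, against 12.48 and 11.80 in fetal liver (-5.26 ± 0.28). Apoh and Apoc1 were lower, with log2 fold changes of -5.14 ± 0.29 and -4.60 ± 0.29. Fabp1, the fatty acid binding protein of hepatocytes and enterocytes, was at 4.64, 4.62 and 4.12 in iHeps, against 10.32 and 8.19 in fetal liver (-4.79 ± 0.52). Hc, a component of the membrane attack pathway, and Cfi, a complement inactivator, were lower, with log2 fold changes of -4.44 ± 0.20 and -5.35 ± 0.27. Cfb, a protease of the alternative pathway, was higher by 1.61 ± 0.35 (adjusted p = 0.00616; 1.31, adjusted p = 0.0774, without fetal liver replicate 2). The higher complement members numbered 4 without iHep replicate 1 and 1 without fetal liver replicate 2. The probe sets of Masp1, a protease of the lectin pathway, disagreed: the one used was at 11.93, 10.99 and 11.52 in iHeps, against 6.57 and 6.59 in fetal liver (4.90 ± 0.34), while the gene gave -1.07 (adjusted p = 0.165) when probe sets shared between transcripts were left out and 2.28 as the mean of its probe sets.

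**Figure D3:**
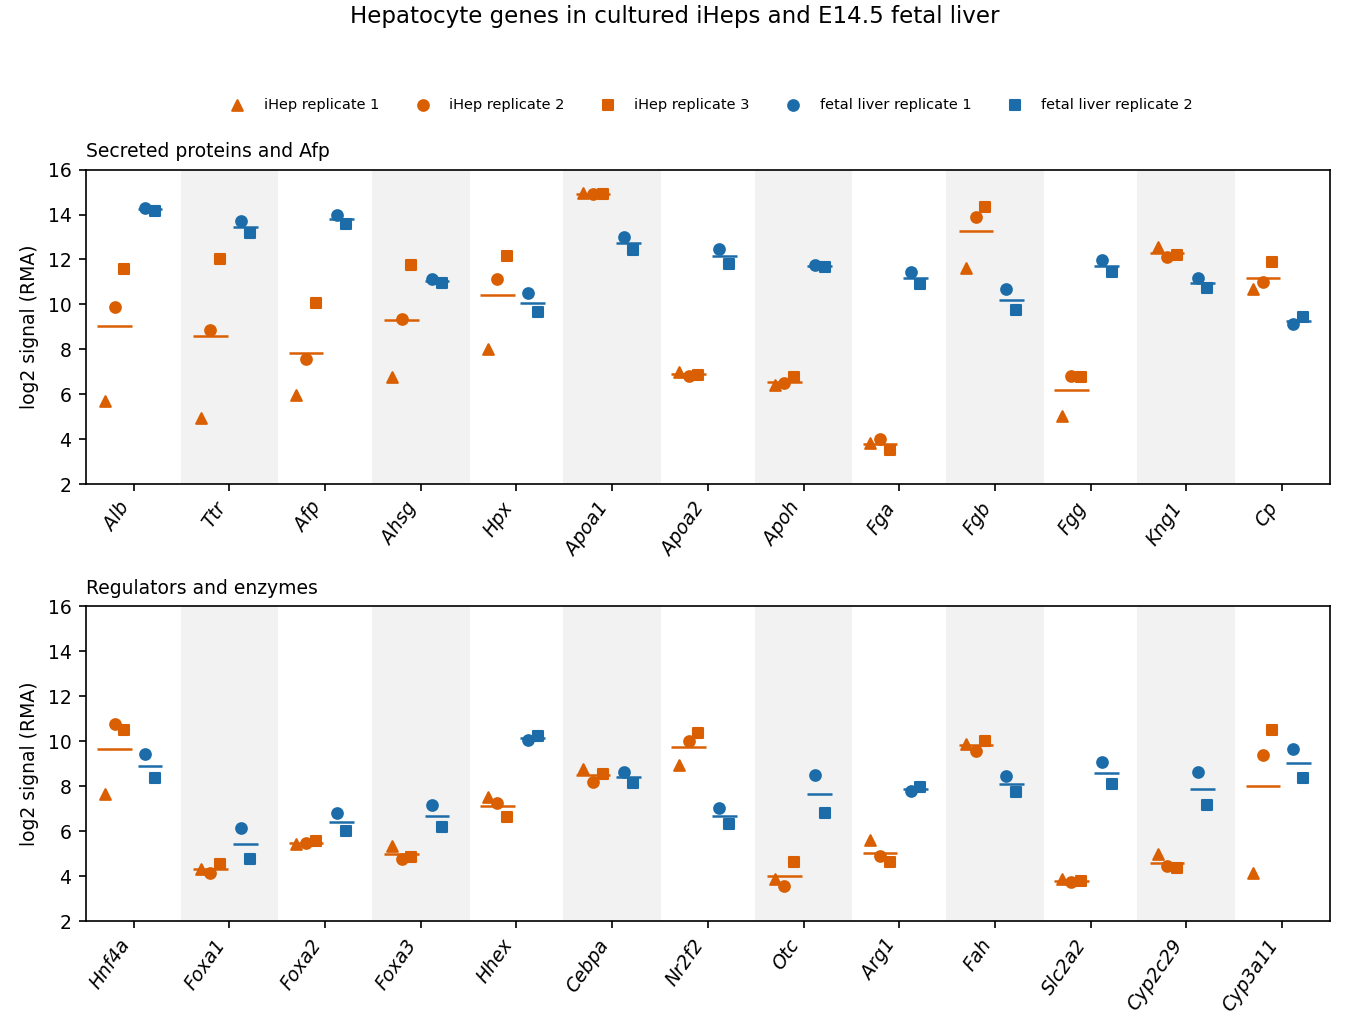
Log2 signal (vertical axis) of genes for secreted liver proteins (upper panel) and of liver regulators and enzymes (lower panel), with the 3 iHep arrays left of the 2 fetal liver arrays for each gene; points are arrays and short lines are group means. Alb and Ttr spread over the 3 lines, Fgb and Apoa1 lie above fetal liver, and Fga, Fgg and Apoa2 lie under it.

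Among metabolic enzymes of the liver the lower members outnumbered the higher ones. Lower shares ran from 23.8% to 52.0% of a list, against 13.1% of all genes tested. Higher shares ran from 3.45% to 10.5%, against 19.9% of all. In the urea cycle and amino acid list 13 of 25 were lower and 2 higher (median -1.04), in the glucose and glycogen list 6 and 2 of 19 (median -0.65), in the list of cytochromes P450 and conjugating enzymes 9 and 1 of 29 (median -0.90), and in the bile acid and transporter list 5 and 2 of 21 (median -0.31). Without fetal liver replicate 1 the lower members of the urea cycle and amino acid list numbered 8. The higher members of these 4 lists were few and unsteady: each list had 0 or 1 without fetal liver replicate 2, and the P450 list had 3 without iHep replicate 1. Otc, a urea cycle enzyme, was at 3.89, 3.57 and 4.61 in iHeps, against 8.49 and 6.79 in fetal liver (-3.62 ± 0.66, adjusted p = 0.00216). Arg1, which releases urea, was at 5.62, 4.88 and 4.62 in iHeps, against 7.80 and 7.95 in fetal liver (-2.84 ± 0.52). Slc2a2, the glucose transporter of hepatocytes, was at 3.86, 3.74 and 3.77 in iHeps, against 9.05 and 8.12 in fetal liver (-4.80 ± 0.38). All 3 genes were at or near background in iHeps. Bhmt, a methionine cycle enzyme, Ugt2b34, a glucuronosyltransferase, and Abcb4, the phospholipid exporter of bile, were lower, with log2 fold changes of -3.93 ± 0.53, -4.99 ± 0.41 and -3.25 ± 0.34.

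Some enzymes ran the other way. Fah, the last enzyme of tyrosine breakdown, was at 9.87, 9.55 and 10.03 in iHeps, against 8.45 and 7.75 in fetal liver (1.71 ± 0.39, adjusted p = 0.00716; 1.36, adjusted p = 0.0889, without fetal liver replicate 2). Amacr, a racemase of bile acid side chains, was at 9.44, 9.55 and 9.61 in iHeps, against 8.07 and 7.23 in fetal liver (1.89 ± 0.33, adjusted p = 0.0017). Pkm, the pyruvate kinase of non-hepatic and growing cells, was higher by 1.67 ± 0.25, while Pklr, that of liver and red cells, was lower, with a log2 fold change of -3.63 ± 0.32. Pklr was at 6.89, 6.50 and 7.52 in iHeps, against 10.65 and 10.56 in fetal liver. Cyp3a11, a drug-metabolizing cytochrome, was at 4.13, 9.37 and 10.50 in iHeps and at 9.66 and 8.37 in fetal liver (-1.02 ± 1.46, adjusted p = 0.657). Line 1 was thus at background for Cyp3a11 while lines 2 and 3 were at or above the lower fetal liver array.

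Of 17 hepatoblast and oncofetal genes tested, 4 were higher in iHeps and 4 lower (median -0.70). Each share was 23.5%, against 19.9% higher and 13.1% lower over all genes tested. Afp, alpha-fetoprotein, was at 5.95, 7.58 and 10.05 in iHeps, against 14.00 and 13.56 in fetal liver (-5.92 ± 0.91, adjusted p = 0.000786), and passed in all 5 fits without an array. Mest, an imprinted hydrolase, was lower, with a log2 fold change of -1.96 ± 0.30. The other lower members were Meg3, an imprinted long RNA (-1.79 ± 0.56, adjusted p = 0.0339), and Cdkn1c, an imprinted cell cycle inhibitor (-1.66 ± 0.51, adjusted p = 0.0319). The Meg3 call was lost without fetal liver replicate 1 (-1.65) or replicate 2 (-1.93). The Cdkn1c call was lost without iHep replicate 1 (-1.31), iHep replicate 2 (-1.54) or fetal liver replicate 1 (-1.17). With the scramble shRNA iHep arrays Mest differed by -1.01 (adjusted p = 0.0835). Meg3 differed there by -0.45 (adjusted p = 0.366) and Cdkn1c by -0.605 (adjusted p = 0.289). Only Afp of the 4 lower members passed with those arrays (-4.80, adjusted p = 1.28e-05). The higher members were Ppic, a secretory pathway isomerase, Hmga2, a chromatin protein of embryonic cells, Ndn, an imprinted growth regulator, and Sgce, an imprinted sarcoglycan, at 2.67 ± 0.39, 2.38 ± 0.40, 2.10 ± 0.47 and 1.77 ± 0.37. The Ndn call was lost without fetal liver replicate 2 (1.85). Igf2, the fetal insulin-like growth factor, was at 7.35, 10.76 and 13.87 in iHeps and at 11.57 and 11.14 in fetal liver (-0.70 ± 1.41, adjusted p = 0.764). Dlk1, a surface marker of hepatoblasts, was at 6.10, 9.52 and 9.75 in iHeps and at 9.74 and 8.76 in fetal liver (-0.79 ± 0.95, adjusted p = 0.585). Both genes spread over the 3 lines on either side of a fetal liver array. The members that did not pass were Igf2, Dlk1, Gpc3, Igf2bp1, Igf2bp3, Peg3, Plagl1, Grb10 and Slc38a4, while Lin28b and Peg10 were at background and not tested.

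Bile duct, gut and stomach genes were next to be compared, since hepatoblasts also give rise to bile duct cells. Of 16 cholangiocyte markers 6 were higher (37.5%, against 19.9% of all genes tested) and 3 lower (18.8%, against 13.1% of all). Their median was 0.18. Krt19, a keratin of simple ductal epithelia, was at 13.11, 11.93 and 12.77 in iHeps, against 5.85 and 5.71 in fetal liver (6.82 ± 0.42, adjusted p = 3.03e-06). Anxa4, an annexin of secretory epithelia, was at 11.72, 11.43 and 12.18 in iHeps, against 8.74 and 7.91 in fetal liver (3.45 ± 0.29). Sox9, a factor of ducts and crypts, was higher by 2.67 ± 0.37. On the lower side stood Prom1, a membrane protein of progenitors, at 5.11, 5.08 and 5.14 in iHeps, against 9.62 and 9.17 in fetal liver (-4.28 ± 0.22), and Aqp1, a water channel of red cells and ducts (-5.50 ± 0.36).

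As lists, the intestinal genes were near the shares over all genes tested, 19.9% higher and 13.1% lower. Of 24 intestinal regulators 5 were higher in iHeps (20.8%) and 19 did not pass (median 0.09). Of 39 intestinal epithelium genes 10 were higher (25.6%), 5 were lower (12.8%) and 24 did not pass (median 0.10). The higher regulators were Cdx2, Klf4, Klf5, Hes1 and Sox9. Cdx2, the homeobox factor that specifies intestine, was at 10.33, 8.97 and 9.17 in iHeps, against 4.97 and 5.68 in fetal liver (4.17 ± 0.39, adjusted p = 3.32e-05). Klf5, a factor of crypt growth, was at 10.71, 9.90 and 10.40 in iHeps, against 7.06 and 7.59 in fetal liver (3.01 ± 0.32). Gcnt3, a mucin-type glycosyltransferase, had the highest log2 fold change of the named genes, at 12.17, 11.73 and 12.58 in iHeps against 3.09 and 3.28 in fetal liver (8.97 ± 0.40, adjusted p = 4.19e-07). Vil1, the brush border protein villin, was at 10.85, 9.92 and 11.51 in iHeps, against 5.35 and 4.96 in fetal liver (5.60 ± 0.39). Lgals4 and Tff3, a gut galectin and a goblet cell trefoil peptide, were higher by 5.82 ± 0.38 and 6.32 ± 0.68. Tspan8, a tetraspanin of gut epithelium, was high in both groups, at 13.49, 12.42 and 12.89 in iHeps and at 11.61 and 12.17 in fetal liver, and did not pass (1.04 ± 0.44, adjusted p = 0.0997). The lower members included Car1, a carbonic anhydrase of colon and of red cells, at 4.80, 5.26 and 5.03 in iHeps, against 9.53 and 10.09 in fetal liver (-4.79 ± 0.35). Without iHep replicate 2 the lower intestinal epithelium genes numbered 3.

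Of 17 gastric and pancreatic genes 5 were higher (29.4%, against 19.9% of all genes tested) and 1 lower. Gkn2, a stomach surface cell peptide, was at 12.33, 13.17 and 13.72 in iHeps, against 6.83 and 6.30 in fetal liver (6.51 ± 0.90, adjusted p = 0.000422). Smgc, a mucin-like salivary gland gene, was at 9.30, 12.90 and 13.34 in iHeps, against 3.21 and 3.04 in fetal liver (8.72 ± 1.09). The higher members numbered 3 without iHep replicate 2 and 2 without either fetal liver array. The calls of Tff1 (4.05 ± 1.03), a gastric trefoil peptide, and of Pdx1 (2.88 ± 0.81), a factor of pancreas and duodenum, were among those lost, at 4.03 and 2.54 without fetal liver replicate 1 and at 4.07 and 3.22 without fetal liver replicate 2. Pdx1 was also lost without iHep replicate 2 (2.43) or 3 (2.34).

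Epithelial and mesenchymal genes both stood above fetal liver in part. Of 32 epithelial junction genes 15 were higher (46.9%, against 19.9% of all genes tested) and 2 lower (median 2.14). Of 33 fibroblast and mesenchymal genes 10 were higher (30.3%) and 3 lower (median 1.64). Cldn2, a pore-forming claudin, was at 10.32, 9.57 and 10.60 in iHeps, against 4.63 and 4.36 in fetal liver (5.67 ± 0.29, adjusted p = 1e-06). Krt8, the keratin partner of simple epithelia, was at 12.60, 12.68 and 13.44 in iHeps, against 9.62 and 7.15 in fetal liver (4.53 ± 0.58). Tjp1, a tight junction scaffold, was higher by 4.45 ± 0.33. On the mesenchymal side Twist1, a factor of mesoderm and of epithelial to mesenchymal change, was at 9.36, 9.35 and 9.14 in iHeps, against 4.26 and 4.08 in fetal liver (5.11 ± 0.37, adjusted p = 7.88e-06). Snai2, a repressor of the same process, was at 10.00, 10.67 and 9.82 in iHeps, against 5.28 and 5.74 in fetal liver (4.66 ± 0.35). Cdh2, N-cadherin of mesenchyme and hepatocytes, was higher by 3.62 ± 0.45. Twist1, Snai2 and Tjp1 were thus above fetal liver in each of the 3 lines. Zeb2, another repressor of epithelial genes and also a blood cell factor, was at 4.91, 7.32 and 7.08 in iHeps, against 9.89 and 9.74 in fetal liver (-3.38 ± 0.74). Collagen Col1a2 was at 6.53, 9.52 and 11.23 in iHeps and at 8.54 and 8.52 in fetal liver (0.56 ± 1.26, adjusted p = 0.786). Without iHep replicate 1 the higher mesenchymal members numbered 15, and without either fetal liver array they numbered 5; the count was 6 without iHep replicate 2.

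Of 23 epithelial regulators and proteases 7 were higher (30.4%, against 19.9% of all genes tested) and 16 did not pass. The higher ones included Tmprss2, a surface protease (3.65 ± 0.50), Spint2, a protease inhibitor (2.98 ± 0.19), and Grhl1, a grainyhead factor (2.14 ± 0.36). Of 30 HOX genes, which mark position along the body, 12 were higher and 18 did not pass (median 0.96). Hoxc8 was at 8.65, 9.96 and 10.01 in iHeps, against 3.44 and 3.13 in fetal liver (6.26 ± 0.42, adjusted p = 4.61e-06). Hoxa10 was at 8.00, 8.08 and 8.37 in iHeps, against 3.95 and 3.70 in fetal liver (4.33 ± 0.20). Both genes were at background in fetal liver, and Hoxc8 was lowest in line 1. Hoxa5 was at 8.44, 8.39 and 8.39 in iHeps and at 8.01 and 8.41 in fetal liver, and the groups overlapped (0.19 ± 0.21, adjusted p = 0.538). Without fetal liver replicate 2 the higher HOX genes numbered 7.

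**Figure D4:**
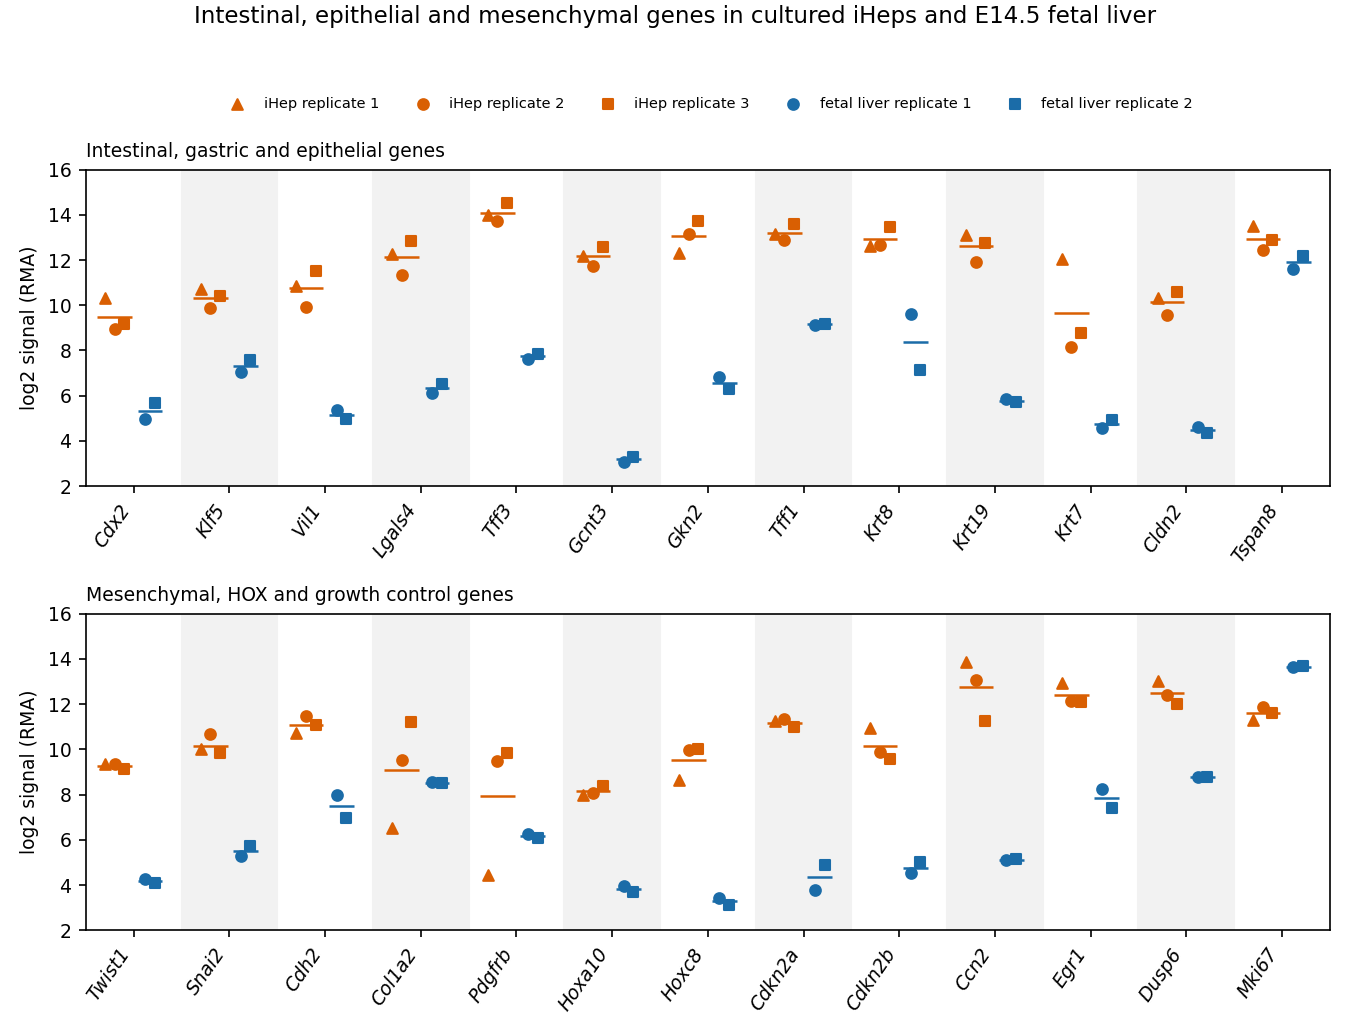
Log2 signal (vertical axis) of intestinal, gastric and epithelial genes (upper panel) and of mesenchymal, HOX and growth control genes (lower panel), with the 3 iHep arrays left of the 2 fetal liver arrays for each gene; points are arrays and short lines are group means. Cdx2, Gcnt3, Twist1 and Cdkn2a lie above fetal liver in all 3 lines, while Tspan8 is high in both groups and Mki67 is lower in iHeps.

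Genes of cell division were expressed in both groups and mostly at a lower level in iHeps. Of 32 cell cycle genes 20 were lower and 12 did not pass (median -1.10). Mki67, the proliferation antigen Ki-67, was at 11.30, 11.86 and 11.60 in iHeps, against 13.63 and 13.68 in fetal liver (-2.07 ± 0.30, adjusted p = 0.000596). Kif11, a spindle motor, was at 8.37, 9.36 and 8.87 in iHeps, against 10.94 and 10.91 in fetal liver (-2.06 ± 0.34). Cdc20, a mitotic activator, was at 12.14, 12.70 and 12.25 in iHeps and at 12.72 and 12.55 in fetal liver, and did not pass (-0.27 ± 0.35, adjusted p = 0.612). Within the list the lowest array was iHep replicate 1, with a mean level of 10.29, against 11.14 and 10.60 in the other lines and 11.94 and 11.72 in fetal liver. The count of lower members was 11 without iHep replicate 1, 13 without iHep replicate 3, 5 without fetal liver replicate 1 and 8 without fetal liver replicate 2; it was 25 when quantile normalization was repeated.

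Cyclin D, inhibitor and p53 target genes were higher in 15 of 24 members and lower in 6 (median 2.24). Cdkn2a, the Ink4a and Arf locus that is switched on in cultured fibroblasts, was at 11.24, 11.32 and 10.98 in iHeps, against 3.79 and 4.89 in fetal liver (6.84 ± 0.40, adjusted p = 1.94e-06). Cdkn2b, its neighbour, was at 10.93, 9.89 and 9.59 in iHeps, against 4.55 and 5.00 in fetal liver (5.36 ± 0.35). Zmat3, Perp and Phlda3, targets of p53, were higher by 5.14 ± 0.26, 4.17 ± 0.26 and 3.65 ± 0.32. The inhibitor Cdkn2d, of the same family, was lower, at 9.10, 9.91 and 9.98 in iHeps against 11.86 and 12.39 in fetal liver (-2.46 ± 0.41), as were the retinoblastoma gene Rb1 (-1.89 ± 0.19) and Ccnd3 (-1.94 ± 0.32), a cyclin used by blood cells. Members of the Cdkn2 family thus stood on both sides of fetal liver. Without fetal liver replicate 2 the lower members of the list numbered 3.

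Of 28 YAP target and wound response genes 18 were higher and 1 lower (median 2.23), and of 23 genes of the EGF and HGF receptor system 15 were higher and 8 did not pass (median 2.09). Ccn2, a matricellular YAP target, was at 13.88, 13.06 and 11.26 in iHeps, against 5.10 and 5.15 in fetal liver (7.61 ± 0.61, adjusted p = 1.39e-05). Ccn1, its relative, was higher by 6.32 ± 0.42, and S100a6, a calcium-binding protein of spreading cells, by 5.43 ± 0.79. Tgfbi, a matrix protein also made by macrophages, was the 1 lower member, at 5.78, 6.55 and 6.73 in iHeps against 9.60 and 10.07 in fetal liver (-3.48 ± 0.47). Ereg, an EGF receptor ligand, was at 11.19, 9.34 and 7.87 in iHeps, against 3.70 and 3.78 in fetal liver (5.72 ± 0.77). Egr1, an immediate early gene downstream of growth factor receptors, was at 12.95, 12.13 and 12.08 in iHeps, against 8.25 and 7.41 in fetal liver (4.56 ± 0.38). Dusp6 and Errfi1, feedback inhibitors of the pathway, were higher by 3.71 ± 0.33 and 4.03 ± 0.34. Egfr itself was at 8.53, 8.15 and 8.28 in iHeps and at 8.33 and 8.20 in fetal liver (0.06 ± 0.22, adjusted p = 0.883). The iHep medium held EGF and HGF and the fetal liver was fresh tissue, so the cell state and the medium cannot be told apart here.

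Of 16 matrix proteases and inhibitors 5 were higher (31.2%, against 19.9% of all genes tested) and 1 lower. Timp1, a metalloproteinase inhibitor, was at 11.10, 11.64 and 10.70 in iHeps, against 5.42 and 5.25 in fetal liver (5.81 ± 1.12, adjusted p = 0.00301), and Mmp13, a collagenase, was higher by 6.16 ± 0.75. Other genes among the 15 highest were Cpe, a prohormone carboxypeptidase (8.71 ± 0.46), Mgp, a matrix Gla protein (7.83 ± 0.29), Pdk4, a brake on glucose oxidation (7.77 ± 0.76), Clca1, a goblet cell secreted protein (7.65 ± 0.59), Prss23, a serine protease (7.61 ± 0.56), Lhfp (7.42 ± 0.76), Npnt, an integrin ligand (7.41 ± 0.36), Fgf7, a mesenchymal growth factor for epithelia (7.23 ± 0.65), Crabp1, a retinoic acid binding protein (7.21 ± 0.23), F3, tissue factor (7.19 ± 0.40), Ddr1, a collagen receptor of epithelia (7.17 ± 0.38), and Pcolce, a collagen processing enhancer (7.07 ± 0.59). Clca1 was at 12.56, 10.69 and 10.26 in iHeps, against 3.44 and 3.60 in fetal liver. Fetal liver was at background for these genes except Mgp and Pcolce.

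Lipid and redox genes were also compared. Among 23 cholesterol and fatty acid synthesis genes 11 were higher (47.8%, against 19.9% of all genes tested), with a median of 1.06. Among 19 fatty acid oxidation and ketone genes 7 were higher (36.8%), with a median of 0.43. In each list 12 did not pass. Cyp51, a sterol demethylase, was at 10.46, 10.36 and 11.51 in iHeps, against 8.69 and 7.76 in fetal liver (2.55 ± 0.38, adjusted p = 0.000654). Cpt1a, the gatekeeper of mitochondrial fatty acid uptake, was at 10.63, 10.12 and 10.21 in iHeps, against 8.35 and 8.18 in fetal liver (2.06 ± 0.28). The synthesis list had 3 higher members without fetal liver replicate 2, 7 without fetal liver replicate 1 or iHep replicate 3, and 7 when quantile normalization was repeated, and the oxidation list had 4 without fetal liver replicate 2. Fetal liver replicate 2 had the lowest mean level of the 5 arrays in both lists, at 9.04 and 8.43. Of 21 glutathione and NRF2 target genes 9 were higher and 4 lower. Gsta4, a glutathione transferase for lipid peroxides, was at 13.72, 13.56 and 13.61 in iHeps, against 8.65 and 8.02 in fetal liver (5.29 ± 0.37), and Aldh1a1, a retinal dehydrogenase, was higher by 4.25 ± 0.37. Gclm, a subunit of the glutathione-making enzyme, was at 9.83, 10.69 and 10.33 in iHeps, against 12.29 and 12.53 in fetal liver (-2.12 ± 0.33).

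Immune genes other than cell markers depended on the line. Of 21 interferon response genes 5 were higher (23.8%, near the 19.9% of all genes tested). There were 13 without iHep replicate 1, 2 without either other line and 1 without either fetal liver array. The mean level of the list was 7.22, 9.41 and 9.09 in the iHep arrays, against 7.27 and 7.32 in fetal liver, so that line 1 was level with fetal liver and the other lines above it. Ifitm3, a barrier to virus entry, was at 11.56, 13.18 and 13.15 in iHeps, against 10.76 and 11.12 in fetal liver (1.69 ± 0.49, adjusted p = 0.0242), a call that passed only when iHep replicate 1 was the array left out; it was 1.42 without iHep replicate 2, 1.43 without iHep replicate 3, 1.51 without fetal liver replicate 1 and 1.87 without fetal liver replicate 2. Ddx58, the RNA sensor RIG-I, was at 8.31, 9.42 and 9.65 in iHeps, against 7.23 and 7.30 in fetal liver, and passed in all 5 such fits (1.86 ± 0.39, adjusted p = 0.005). Of 15 MHC genes 4 were higher (26.7%, against 19.9% of all genes tested) and 4 lower (26.7%, against 13.1% of all). The class I genes H2-K1, H2-D1, B2m and Tap1 were higher by 1.09 to 1.56. The class II genes H2-Aa, H2-Ab1, H2-Eb1 and Cd74 were lower, at -1.97 to -1.13. Of the class II genes H2-Aa alone passed in every fit without an array (-1.97 ± 0.39), and the lower members numbered 1 without any array other than iHep replicate 1. H2-Aa, which is made by antigen presenting cells, was at 5.17, 5.25 and 5.32 in iHeps, against 7.08 and 7.36 in fetal liver.

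Among 13 housekeeping genes 4 were higher (30.8%, against 19.9% of all genes tested) and 1 lower. The higher ones numbered 2 without iHep replicate 2. Actb was at 14.42, 14.38 and 14.40 in iHeps and at 14.40 and 14.36 in fetal liver (0.02 ± 0.20, adjusted p = 0.952), and Eef1a1 differed by 0.21 ± 0.17. Of 3 sex-linked genes tested, Eif2s3y, a Y-linked translation factor gene, was at 3.48, 3.56 and 3.81 in iHeps, against 9.38 and 10.15 in fetal liver (-6.15 ± 0.24, adjusted p = 2.32e-07). Xist, the RNA of the inactive X chromosome, was at 12.73, 12.60 and 12.52 in iHeps and at 11.73 and 11.89 in fetal liver (0.81 ± 0.22, adjusted p = 0.0197; calls lost without iHep replicate 1, at 0.75, fetal liver replicate 1, at 0.73, or fetal liver replicate 2, at 0.89). Both transcripts were well above background in each fetal liver array, while the iHep arrays held Xist and not Eif2s3y. The labels used here give no sex for these samples, and the part of sex in other differences was not tested.

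The 3 iHep lines differed among themselves more than the 2 fetal livers did. The range over the arrays of a group exceeded 2 on the log2 scale in 466 of the genes tested for iHeps (3.05%) and in 13 for fetal liver (0.0852%), a comparison of 3 arrays with 2. Replicate 1 stood apart: 144 genes were lower there by more than 2 than in both other lines, which were within 1 of each other, and 19 genes were higher by that rule. The same counts were 1 and 5 for replicate 2 and 4 and 14 for replicate 3. These counts describe the arrays and were not tested. Each fetal liver array held both Xist and Eif2s3y, as given above, and what pooling of fetuses would do to the range was not tested.

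Of the 144 genes lower in replicate 1 by that rule (0.944% of all genes tested), 37 were list members, among them 10 of 33 fibroblast and mesenchymal genes and 9 of 21 interferon response genes, but none of the 26 plasma carrier and acute phase proteins. Alb, Ttr, Igf2 and Peg3 were lowest in replicate 1 too but differed by more than 1 between the other lines. Peg3, an imprinted zinc finger gene, was at 7.22, 10.62 and 12.27 in iHeps and at 10.05 and 8.97 in fetal liver. The matrix genes Ogn and Efemp1 were at 4.41 and 6.91 in line 1, at 11.46 and 11.91 in line 2 and at 11.92 and 12.78 in line 3. Pdgfrb, the receptor of stellate cells and fibroblasts, was at 4.45, 9.48 and 9.86 in iHeps and at 6.25 and 6.07 in fetal liver, so that the lines lay on either side of fetal liver. Bst2, an interferon-induced membrane protein, was at 8.28, 11.84 and 11.30 in iHeps and at 8.44 and 8.21 in fetal liver. Genes high in replicate 1 included Krt7, a ductal keratin, at 12.03, 8.15 and 8.79 in iHeps against 4.56 and 4.95 in fetal liver. Cdhr1, a photoreceptor-type cadherin, was at 11.80, 7.78 and 7.16 in iHeps, against 4.72 and 4.56 in fetal liver. Anxa10, an annexin of stomach, was at 10.03, 7.38 and 4.95 in iHeps, against 3.91 and 3.97 in fetal liver. The 4 iHep arrays with scramble shRNA, whose line the labels do not give, averaged 11.99 ± 0.19 for Ogn, 10.28 ± 0.16 for Pdgfrb, 8.80 ± 0.75 for Krt7 and 4.38 ± 0.27 for Anxa10 (SD, n = 4).

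**Figure D5:**
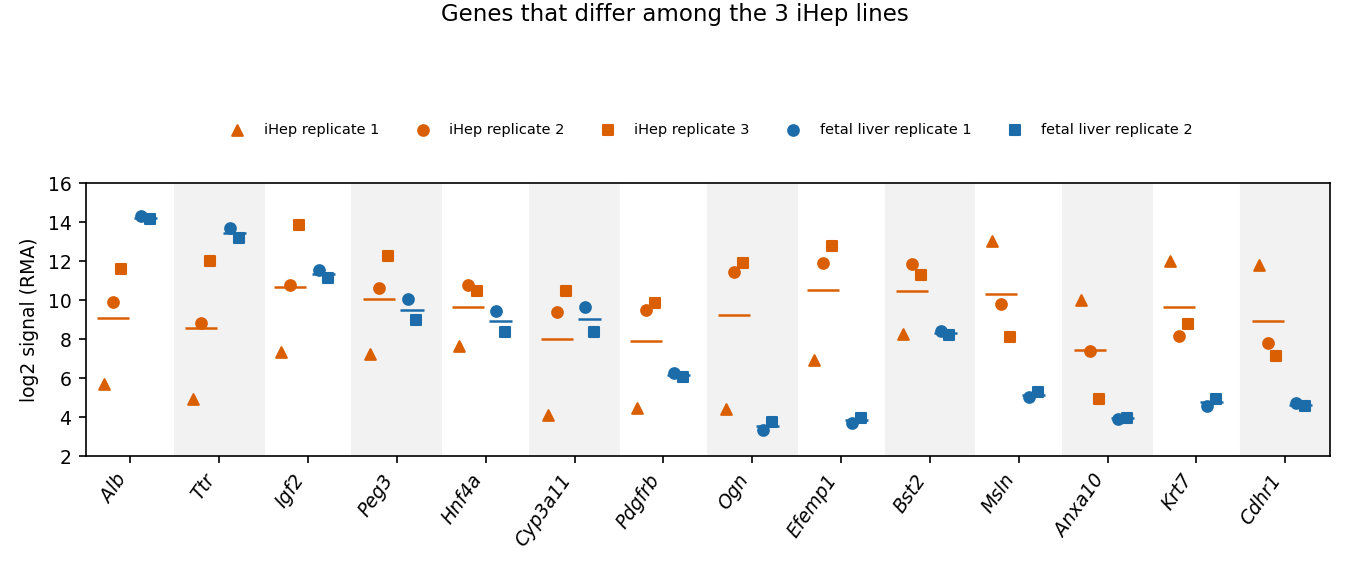
Log2 signal (vertical axis) of genes that differ among the 3 iHep lines, which stand left of the 2 fetal liver arrays for each gene; points are arrays and short lines are group means. Replicate 1 (triangles) is lowest of the lines for Alb to Bst2 and highest for Msln to Cdhr1. The fetal liver arrays lie 1.06 apart for Hnf4a, 1.07 for Peg3 and 1.29 for Cyp3a11.

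The fetal liver arrays differed in a smaller way. Over all genes tested, 8695 were higher in replicate 1 than in replicate 2 and 6524 were lower. Replicate 1 was above replicate 2 in 18 of 26 plasma carrier and acute phase proteins, 21 of 22 coagulation factors and 23 of 29 cytochromes P450 and conjugating enzymes. It was above replicate 2 in none of the 21 macrophage and 14 lymphoid markers and in 4 of 20 granulocyte and mast cell markers. Single hepatic genes went either way: Otc was at 8.49 in replicate 1 and at 6.79 in replicate 2, whereas Cps1, the first enzyme of the urea cycle, was at 7.94 in replicate 1 and at 8.62 in replicate 2. The mean level of the plasma carrier list was 9.03 in replicate 1 and 8.77 in replicate 2. The mean level of the 15 measured lymphoid markers was 7.28 in replicate 1 and 8.32 in replicate 2. In iHeps that mean was 5.50, 5.40 and 5.35. The part of this difference in the calls above was not tested beyond leaving out each array.

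The model also gave the difference between adult and fetal liver, which equals iHep minus fetal liver less iHep minus adult liver, with signs kept. The iHep values cancel in that difference, so it does not show which liver the iHeps were nearer to. It passed the threshold for 49.3% of genes, with 2777 higher in adult liver (18.2%) and 4748 lower (31.1%). The labels of the adult arrays conflict, naming liver at 8 weeks in one field and hepatocytes isolated at 10 weeks in another. For 20 of 23 liver regulators adult liver was higher than fetal liver (median 2.58). Foxa1 was at 4.32 ± 0.19 in iHeps (n = 3), at 7.64 ± 1.30 in adult liver (n = 2) and at 5.43 ± 0.98 in fetal liver (SD, n = 2), and Hnf4a was at 9.64 ± 1.72 in iHeps, at 11.94 ± 0.26 in adult liver and at 8.91 ± 0.75 in fetal liver. The cytochromes P450 and conjugating enzymes had a median of 6.19 in adult over fetal liver, and Cyp2c29, a P450 of adult hepatocytes, averaged 4.60 in iHeps, 14.08 in adult liver and 7.89 in fetal liver. For cell cycle genes the median was -5.71: Mki67 averaged 11.59 in iHeps, 7.63 in adult liver and 13.66 in fetal liver. Cp averaged 11.19 in iHeps, 14.48 in adult liver and 9.28 in fetal liver, and Apoa1 averaged 14.92 in iHeps, 14.68 in adult liver and 12.73 in fetal liver.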

How the data were processed

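RNA was measured on 25 one-colour Affymetrix mouse genome arrays. The deposited values are log2 signals that the authors made with RMA, per the submitters' processing notes, which give no version; scanner files were not used here. Each array column was matched to its sample by the labels. Of 45101 probe sets, 64 were controls, 34945 listed 1 gene symbol in the platform annotation, 932 listed several and 9160 none; only those with 1 symbol entered the tests. For each of 18193 genes 1 probe set was kept, that of highest mean signal across the arrays. A gene was tested if it exceeded the 40th percentile of its array on at least 2 of the 11 arrays of the model.

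limma 3.58.1 (lmFit and eBayes, two-sided) in R 4.3.3 was fitted over 5 groups, with Benjamini-Hochberg adjustment over 15262 genes and a threshold of 0.05. The script was tested on simulated data with 50 genes changed at each size. It recovered 20% of changes of 1 on the log2 scale, 74% of 2, 88% of 3 and 96% of 4. The changed genes were few among the 15262 simulated, whereas 33.0% of genes passed in the data. Adjusted p-values depend on that share, so the rates describe the simulation and not the sensitivity of the comparison. A gene that did not pass is not shown to be unchanged. Tables and figures used Python 3.11.15, pandas 2.3.3 and matplotlib 3.10.9. Figures after ± are standard errors unless called SD. The iHep lines are called independent in the labels, but whether the fetal livers came from separate litters is not given. Standard errors and p-values rest on 1 moderated spread per gene, estimated over all 11 arrays of the model. They thus also take in the spread of the adult liver, colon and colon-engrafted arrays. For Csf1r the standard error was 1.24, with an SD of 0.15 in iHeps, 0.26 in fetal liver and 0.91 in adult liver. Precision is also limited by the 3 and 2 arrays of the groups compared. No source used here gives scan dates or batches; the control probe sets show that the model joins 7 arrays with added spike RNA and 4 (colon and colon-engrafted) without it.

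The members and gene lists were chosen with earlier results of these data known. The genes named in the text were Foxa1, Hnf4a and Cdx2, the 15 highest and 15 lowest called genes without overlap between groups (clone-style symbols passed over), up to 5 called members of each list in each direction by size and up to 3 uncalled ones by mean level, all liver regulators and oncofetal genes, and the 10 called genes with the widest range over the iHep lines. Alternatives covered the arrays in the model, the filter, the choice of probe set, the normalization, the variance model, a minimum change, the replicate number as a block and leaving out each array. Promoters came from RefSeq (GRCm38.p6); 14452 measured genes matched one.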

Additional observations from a re-analysis of the deposited data

Results flagged for a closer look

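In 257 genes iHeps were higher than fetal liver and lower than adult liver, and in 476 they were lower than fetal liver and higher than adult liver. These genes are listed because the 2 comparisons, which share the iHep arrays, gave opposite calls. Adult minus fetal liver was tested in the same model, but its direction is set by that choice of genes. It passed as higher in all 257 and as lower in all 476, which is no separate evidence. Among named genes of the first kind adult minus fetal liver was 8.31 for Aldh1a1, 7.41 for Fetub, 5.73 for Errfi1, 5.42 for Cyp27a1 and 5.20 for Cp, a retinal dehydrogenase, fetuin B, a feedback inhibitor of EGF receptor, a sterol hydroxylase and ceruloplasmin. Among those of the second kind it was -7.83 for Birc5, -7.39 for Myb, -7.29 for Mcm6, -7.25 for Cdc6 and -7.20 for Mllt3, which act in mitosis, blood progenitors, replication and transcription. Of 842 tested list members, 28 were of the first kind and 38 of the second, against 257 and 476 of all 15262 genes tested. Whether these shares differ was not tested.

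One probe set that lists the glutathione transferase genes Gsta1 and Gsta2 and the predicted gene Gm3776, and so entered no test, was at 13.56, 13.52 and 13.45 in iHeps, against 3.88 and 4.20 in fetal liver, a difference of 9.47. It stood above every tested gene named here, and which of the 3 genes gave the signal was not tested.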

How the results depend on the processing

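The counts of higher and lower genes, 3041 and 1997, moved by more than 1.5 times under 3 alternatives. Requiring a change of more than 1 on the log2 scale gave 998 higher and 707 lower genes, and with it 3623 genes (against 7525) for adult minus fetal liver and 268 called list members (against 464). The 4 iHep arrays with scramble shRNA, in a model of all 25 arrays, gave 4936 higher and 3593 lower. Leaving out fetal liver replicate 2 gave 1808 higher and 1293 lower; over the 5 fits that left out 1 array the ranges were 1808 to 2825 higher, 1293 to 1704 lower, 6019 to 7421 for adult minus fetal liver and 351 to 475 list members. The other alternatives stayed within 1.5 times. Among them, repeating quantile normalization gave 2525 higher and 2531 lower and a median over all genes of -0.039, against 0.055. The replicate number as a block gave 2486 higher and 1579 lower genes, 7051 for adult minus fetal liver and 419 list members. Deviations from the group mean had correlations of -0.042 and -0.123 between same-numbered arrays, over 2 shared numbers. With 2 fetal liver arrays their deviations are mirror images, so these values cannot decide whether the numbers pair the samples. A model without the colon and colon-engrafted arrays, which lack the added spike RNA, was chosen after seeing the data and gave 3259 higher and 2198 lower. The model of iHep and fetal liver arrays alone gives no adult value.

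Masp1 reversed to -1.07 with shared probe sets left out (4.90 otherwise), and Ceacam1 was at 1.91 with the scramble shRNA arrays (-0.01 with the untransduced lines); the cause was not tested. Of 266 named genes called, 170 were called under every alternative, and 86 were not past a minimum change of 1, 53 without fetal liver replicate 2 and 40 without fetal liver replicate 1. Of 80 list counts, 25 were within 1.5 times under every alternative. Signals under the 40th percentile of an array limit folds by background.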

Other observations

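Probe sets that list several genes hold some of the main products of fetal liver and entered no test. Of 3 that list both alpha globin genes, Hba-a1 and Hba-a2, 1 was at 5.51, 4.80 and 5.43 in iHeps, against 14.97 and 14.95 in fetal liver, a difference of -9.71. The other alpha globin probe sets differed by -9.14 and -7.33, and the 1 that lists 4 adult beta globin genes was at 8.22, 7.88 and 7.88 in iHeps, against 15.01 and 14.98 in fetal liver. The probe set of Hba-a2 alone, which is described above, was near background in both groups and so differs from these.

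The probe set listing Trf, the iron carrier transferrin, and Srprb was at 6.23, 8.88 and 10.80 in iHeps, against 13.17 and 13.04 in fetal liver, with the lines in the same order as for Alb and Ttr. The probe set listing the imprinted RNA H19 and its microRNA Mir675 was at 9.86, 12.89 and 14.53 in iHeps and at 12.93 and 11.94 in fetal liver, with the lines in the same order as for Igf2, its neighbour. The probe set listing Isg15, an interferon-induced modifier, and Gm9706 was at 7.29, 11.63 and 10.64 in iHeps and at 8.43 and 9.04 in fetal liver, lowest in line 1.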
